A study of Homo sapiens with 30 samples.

Results

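The RUNX transcription factors and 7 genes known from bone were followed in breast cancer cells exposed to BMP7. The genes were RUNX1, RUNX2, RUNX3, SPP1, IBSP, BGLAP, ALPL, PTHLH, SPARC and TNFRSF11B, and every array probe carrying 1 of these 10 gene names was taken, which gave 17 of the 41000 probes and 10 of the 30484 distinct entries of the array's gene name column. RUNX3, SPP1, IBSP and SPARC had 1 probe each, and each of the other genes was read from the probe with the highest mean vehicle signal, called its main probe here. The question was whether BMP7 changes the transcripts of osteogenic genes in these cells, and at which level the cells carry them without BMP7.

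The arrays were 30 two-colour oligonucleotide arrays of the whole human transcriptome, 1 for each of 6 time points (30 min and 1, 3, 6, 12 and 24 h after the start) in each of 5 established human breast cancer cell lines, HCC1954, MDA-MB-231, MDA-MB-361, T-47D and ZR-75-30. On each array RNA from cells given the vehicle was labelled with Cy3 and RNA from cells of the same line given recombinant BMP7 for the same time with Cy5. The study picked lines that make little BMP7 of their own, cells from 3 cultures were combined before RNA extraction, no array was repeated and the dyes were not swapped. The 6 arrays of a line are therefore 6 time points and not repeats of 1 condition, the limma p-values rest on the spread between these arrays (for the mean over lines, between the 5 line means), and a mean log2 ratio also holds whatever dye bias its probe has. In bulk RNA, fewer cells with a transcript and less of it per cell cannot be told apart. The paper states that culture followed recommended conditions except for the serum concentration of MDA-MB-231 and T-47D, which differed from each other too. Differences in vehicle level between these and other lines therefore also hold any effect of serum, which was not tested.

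BMP7 is a secreted ligand that binds serine/threonine kinase receptors, which phosphorylate SMAD proteins that enter the nucleus and switch on genes such as those of the ID proteins. RUNX proteins bind DNA together with the partner CBFB and can act with these SMADs. RUNX2 is required for osteoblasts to form, RUNX1 is best known from blood stem cells and RUNX3 from T cells and neurons. In bone-forming cells BMP signals raise RUNX2, and RUNX2 acts on genes of the bone matrix such as BGLAP (osteocalcin), SPP1 (osteopontin) and IBSP (bone sialoprotein). Breast cancers often spread to bone, where PTHLH (parathyroid hormone-related protein) from tumour cells drives bone breakdown and TNFRSF11B (osteoprotegerin), a decoy receptor for the RANK ligand, restrains it.

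The letters that RUNX proteins are known to bind, ACCACA, were searched on both strands in the 250 bases before each start site that the RefSeq promoter table (build GRCh38.p14) holds for these genes. The table held 13 such windows for 9 of the 10 genes, and 4 of the 13 windows held the letters, against 11.0% of all 35116 windows. The 4 are printed 5′ to 3′ on the strand of the gene with the letters in capitals, because they show which members carry such letters next to a start site. A match is a description of these letters and not of binding, which was not measured.
RUNX2 promoter, chr6:45328080-45328329, plus strand: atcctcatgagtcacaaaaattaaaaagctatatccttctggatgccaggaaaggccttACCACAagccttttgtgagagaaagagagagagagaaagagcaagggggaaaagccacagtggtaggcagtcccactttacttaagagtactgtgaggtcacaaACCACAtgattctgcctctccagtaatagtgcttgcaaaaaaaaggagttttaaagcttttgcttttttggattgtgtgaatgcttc
RUNX3 promoter, chr1:24965011-24965260, minus strand: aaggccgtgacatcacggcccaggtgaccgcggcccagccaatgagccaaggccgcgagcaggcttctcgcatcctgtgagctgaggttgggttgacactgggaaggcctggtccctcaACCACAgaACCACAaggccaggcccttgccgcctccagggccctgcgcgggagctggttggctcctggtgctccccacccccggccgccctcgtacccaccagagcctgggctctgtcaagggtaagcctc
BGLAP promoter, chr1:156241934-156242183, plus strand: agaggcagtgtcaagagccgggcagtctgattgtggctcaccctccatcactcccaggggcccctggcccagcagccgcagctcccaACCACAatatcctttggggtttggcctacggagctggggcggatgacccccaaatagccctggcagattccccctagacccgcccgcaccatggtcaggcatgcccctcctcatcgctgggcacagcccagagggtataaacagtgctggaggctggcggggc
SPP1 promoter, chr4:87975464-87975713, plus strand: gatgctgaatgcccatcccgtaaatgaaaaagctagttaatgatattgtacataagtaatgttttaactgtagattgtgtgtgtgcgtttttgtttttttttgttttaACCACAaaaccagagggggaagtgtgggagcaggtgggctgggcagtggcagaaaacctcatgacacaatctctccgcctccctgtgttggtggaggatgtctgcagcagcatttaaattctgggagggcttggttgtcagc

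In the BGLAP window the match began 163 bases before the start site and in the SPP1 window 142 bases before it. RUNX2 and RUNX3, 2 of the factors themselves, each had 2 matches in the window of 1 of their start sites, at 191 and 87 bases for RUNX2 and at 131 and 123 bases for RUNX3.

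Between 55.5% and 69.8% of the probes of an array were well above background in the vehicle channel. Some marker transcripts were read as a check of the lines, and none particular to T-47D or ZR-75-30 is given here. ERBB2, the HER2 receptor gene, averaged 7.24 in MDA-MB-361 and 7.09 in HCC1954 but 1.95 in MDA-MB-231. ESR1, the estrogen receptor gene, was well above background on none of the 6 MDA-MB-231 arrays, and the blood cell marker PTPRC was not well above background in any line. These levels and all vehicle levels below are log2 signals relative to the 75th percentile of the same array. The arrays lay on 13 slides in 2 scan batches. The second batch held 6 arrays. They were HCC1954, MDA-MB-231 and ZR-75-30 at 30 min, MDA-MB-231 and ZR-75-30 at 6 h, and T-47D at 3 h. MDA-MB-231 and ZR-75-30 at 30 min and 6 h shared 1 slide. The ZR-75-30 array at 6 h had the most probes changed at least 2-fold, 4044, where the median array had 543.

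The vehicle levels of most members differed among the lines. The limma F test of the 5 lines, with Benjamini-Hochberg adjustment over all probes, called 12 of the 17 probes and 8 of the 10 main probes, where it called 79.6% of all probes. Of the 100 pairs of lines over the main probes 54 differed and of the 170 over all 17 probes 76 did, against 47.8% of all such pairs on the array. With normexp background correction in place of the scanner's own, 7 of the 17 probes and 38 of the 170 pairs were called, and the main probes of SPP1 (adjusted p = 0.205), PTHLH (adjusted p = 0.123) and TNFRSF11B (adjusted p = 0.0556) were not.

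**Figure D1:**
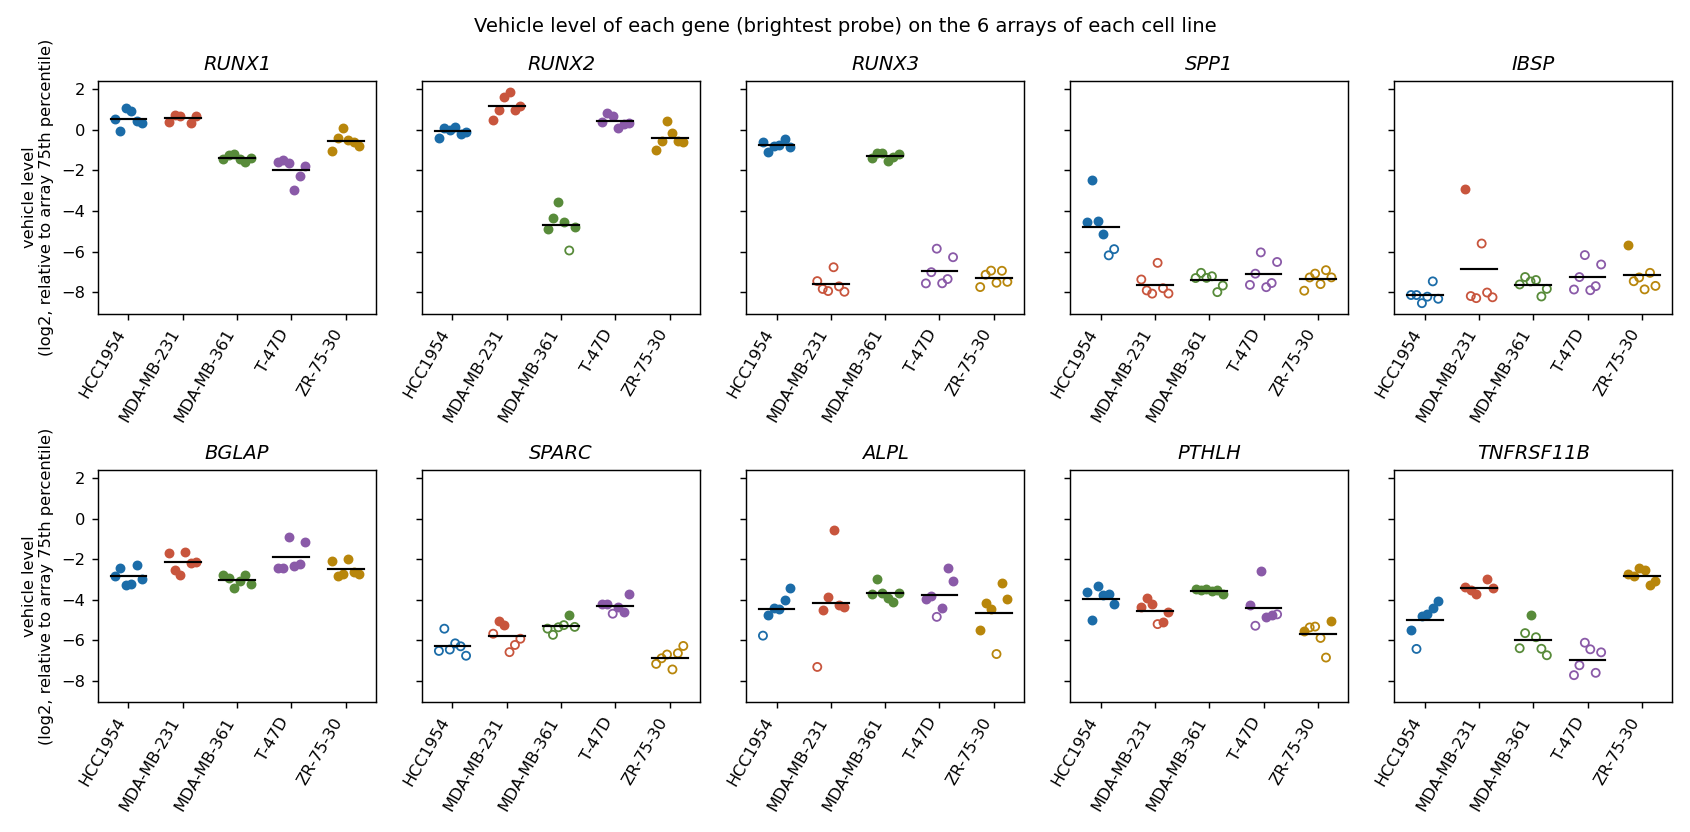
Vehicle levels of the 10 genes, main probes, as log2 signal relative to the 75th percentile of the array (vertical axis), with the 6 arrays of each of the 5 cell lines in time order from left to right. Filled points were well above background, open points were not, and black bars are line means. RUNX3 was well above background in HCC1954 and MDA-MB-361 alone, and RUNX2 sat lowest in MDA-MB-361, with a mean of -4.68.

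RUNX2 was read at chr6:45626194-45626253 (hg18, plus strand). In the vehicle channel it lay from 0.50 to 1.89 in MDA-MB-231 (median 1.08), from 0.08 to 0.84 in T-47D (median 0.37), from -0.38 to 0.15 in HCC1954 (median -0.06), from -0.99 to 0.45 in ZR-75-30 (median -0.55) and from -5.94 to -3.56 in MDA-MB-361 (median -4.65). MDA-MB-361 stood below the other lines with no overlap, and the other 4 formed a graded series with overlapping ranges. The drop from ZR-75-30, the next lowest line, to MDA-MB-361 was 19.4-fold (limma adjusted p = 6.90e-14). MDA-MB-231 exceeded T-47D 1.68-fold (adjusted p = 0.0264), while T-47D and HCC1954 (adjusted p = 0.131) and HCC1954 and ZR-75-30 (adjusted p = 0.362) did not differ beyond their spread. RUNX2 was still well above background on 5 of the 6 MDA-MB-361 arrays. Its other probes were dimmer, A_24_P69267 being well above background on 7 arrays and A_32_P148058 on 5, all of MDA-MB-231. Neither was well above background on any array of HCC1954, ZR-75-30 or MDA-MB-361, so they cannot order these lines. On A_24_P69267 ZR-75-30 and MDA-MB-361 did not differ (limma adjusted p = 0.740), and on A_32_P148058 MDA-MB-361 had a higher mean than ZR-75-30 and HCC1954. The low place of MDA-MB-361 thus rests on the main probe.

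RUNX3, read at chr1:25098920-25098979 (hg18, minus strand), was measurable in only 2 of the lines. It lay from -1.11 to -0.46 in HCC1954 (median -0.77) and from -1.55 to -1.13 in MDA-MB-361 (median -1.27), and was well above background on every array of both. In T-47D (median -7.18), ZR-75-30 (median -7.31) and MDA-MB-231 (median -7.78) it was well above background on no array. HCC1954 was at least 28.5-fold above MDA-MB-231, at least 18.2-fold above T-47D and at least 23.6-fold above ZR-75-30, the limits being set by the dimmest signal still well above background on the arrays of the dim line. For MDA-MB-361 the same limits were 19.7-fold, 12.6-fold and 16.4-fold, and the highest limma adjusted p of these 6 comparisons was 4.83e-18, for MDA-MB-361 against T-47D. The p-values given beside such limits, here and below, test the measured difference and not the limit. HCC1954 and MDA-MB-361 differed 1.45-fold with ranges that just failed to overlap, which missed the threshold (adjusted p = 0.0766). MDA-MB-361, the line with the lowest level on the main RUNX2 probe, was 1 of these 2 lines.

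RUNX1, read at chr21:35082261-35082320 (hg18, minus strand), was well above background on all 30 arrays. It lay from 0.33 to 0.74 in MDA-MB-231 (median 0.69, 5 arrays), from -0.06 to 1.06 in HCC1954 (median 0.48), from -1.05 to 0.08 in ZR-75-30 (median -0.56), from -1.57 to -1.18 in MDA-MB-361 (median -1.41) and from -2.97 to -1.49 in T-47D (median -1.70). MDA-MB-231 and HCC1954 were indistinguishable at the top (adjusted p = 0.946). Each later step down was called by limma, 2.13-fold from HCC1954 to ZR-75-30 (adjusted p = 0.000150), 1.78-fold from there to MDA-MB-361 (adjusted p = 0.00269) and 1.49-fold from there to T-47D (adjusted p = 0.0327), although only ZR-75-30 and MDA-MB-361 did not overlap. The other RUNX1 probe, A_24_P917783, did not give this order, since T-47D came first on it and no neighbouring lines differed. CBFB, the shared partner, was well above background on all 30 arrays, with line means from 0.65 in T-47D to 3.53 in MDA-MB-361.

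The secreted matrix proteins were dim. SPP1 (chr4:89122944-89123003, hg18) ranged in HCC1954 from -6.18 at 12 h to -2.45 at 1 h (median -4.83) and was well above background on 4 of its 6 arrays, while it was well above background on none of the 24 arrays of the other lines. By the limits used for RUNX3, HCC1954 was 1.76-fold above MDA-MB-231 (limma adjusted p = 1.07e-06) and 1.42-fold above MDA-MB-361 (adjusted p = 3.65e-06). It was 1.12-fold above T-47D (adjusted p = 2.58e-05) and 1.46-fold above ZR-75-30 (adjusted p = 5.77e-06). These are not firm lower limits, since the HCC1954 mean includes arrays on which SPP1 was not well above background. The HCC1954 arrays overlapped those of T-47D. IBSP (chr4:88950905-88951561, hg18) was well above background on 2 arrays, MDA-MB-231 at 30 min (-2.89) and ZR-75-30 at 30 min (-5.65), both on the slide that these lines shared, and its levels were not called different among the lines (adjusted p = 0.318).

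SPARC (chr5:151022378-151022437, hg18, minus strand), a calcium-binding matrix glycoprotein also known as osteonectin, was highest in T-47D, where it lay from -4.69 to -3.73 (median -4.30) and was well above background on 5 of 6 arrays. It was well above background on 1 MDA-MB-361 array (median -5.35) and 2 MDA-MB-231 arrays (median -5.80) and on none of HCC1954 or ZR-75-30. T-47D lay 1.00 above MDA-MB-361 on the log2 scale (limma adjusted p = 0.00131), where 5 of the 6 MDA-MB-361 signals were not well above background. By the limits used for RUNX3, T-47D was 2.74-fold above HCC1954 (adjusted p = 9.75e-08) and 2.02-fold above ZR-75-30 (adjusted p = 6.16e-10). The T-47D mean includes an array not well above background, so these are not firm lower limits either. BGLAP (chr1:154479679-154479736, hg18) alone among the matrix genes was well above background on all 30 arrays, with both of its probes. Its line medians ran from -2.15 in MDA-MB-231 and -2.28 in T-47D to -2.66 in ZR-75-30, -2.91 in HCC1954 and -2.99 in MDA-MB-361. All ranges of neighbouring lines overlapped and no neighbours in the order of means differed, but T-47D lay 1.12 above MDA-MB-361 on the log2 scale (adjusted p = 0.000678) and MDA-MB-231 lay 0.87 above it (adjusted p = 0.00685). BGLAP lies beside PMF1, and transcripts that run through both genes are known, so this signal need not come from BGLAP messenger RNA alone.

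ALPL, the tissue-nonspecific alkaline phosphatase used as an early osteoblast marker, was read at chr1:21775671-21776471 (hg18) and was well above background on 26 arrays. Its line medians lay between -4.44 in HCC1954 and -3.68 in MDA-MB-361, every neighbouring pair of ranges overlapped and none of the 10 pairs of lines differed (F test adjusted p = 0.537). MDA-MB-231 held both extremes of the gene, -7.31 at 30 min and -0.54 at 6 h, on the same slide. The second ALPL probe was never well above background.

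PTHLH (chr12:28007609-28007668, hg18, minus strand) was well above background on all arrays of MDA-MB-361 (-3.74 to -3.47, median -3.51) and HCC1954 (-5.02 to -3.32, median -3.74), on 4 of T-47D (median -4.74), 5 of MDA-MB-231 (median -4.48) and 2 of ZR-75-30 (-6.85 to -5.05, median -5.44). ZR-75-30 was the lowest, 2.14-fold below MDA-MB-231 (limma adjusted p = 0.00991) with overlapping ranges and with 4 of its 6 signals not well above background. No neighbours among the 4 higher lines differed. Of the 10 pairs of lines 6 were called, more than those with ZR-75-30 alone. TNFRSF11B, on chromosome 8, had its highest mean in ZR-75-30, where it lay from -3.27 to -2.45 (median -2.79). It followed in MDA-MB-231 (-3.72 to -2.96, median -3.42, 5 arrays), HCC1954 (-6.42 to -4.08, median -4.74), MDA-MB-361 (-6.74 to -4.73, median -6.12, 1 array well above background) and T-47D (-7.72 to -6.12, median -6.91, none well above background). The first pair did not differ (0.59 apart on the log2 scale, adjusted p = 0.188), MDA-MB-231 exceeded HCC1954 2.99-fold without overlap (adjusted p = 0.000570), and ZR-75-30 was at least 4.35-fold above T-47D (adjusted p = 3.00e-11). Both TNFRSF11B probes gave this order of lines.

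Ratios of BMP7 to vehicle were small for most members. Over the 298 log2 ratios of BMP7 to vehicle of the main probes, 280 lay within 0.5 of 0 and 68 were exactly 0, the value the scanner software gives where neither channel was above background. The mean over the 5 lines was other than 0 by limma for none of the 17 probes (2 at an unadjusted p under 0.05), where it was for 0.00976% of all probes. The test called few probes of any kind, and ID1 (0.81) and ID2 (0.91), known BMP targets, did not pass it either. The main probes' mean ratios had a median of 0.0176 and ran from -0.11 to 0.18, with the median of all probes at -0.000447.

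**Figure D2:**
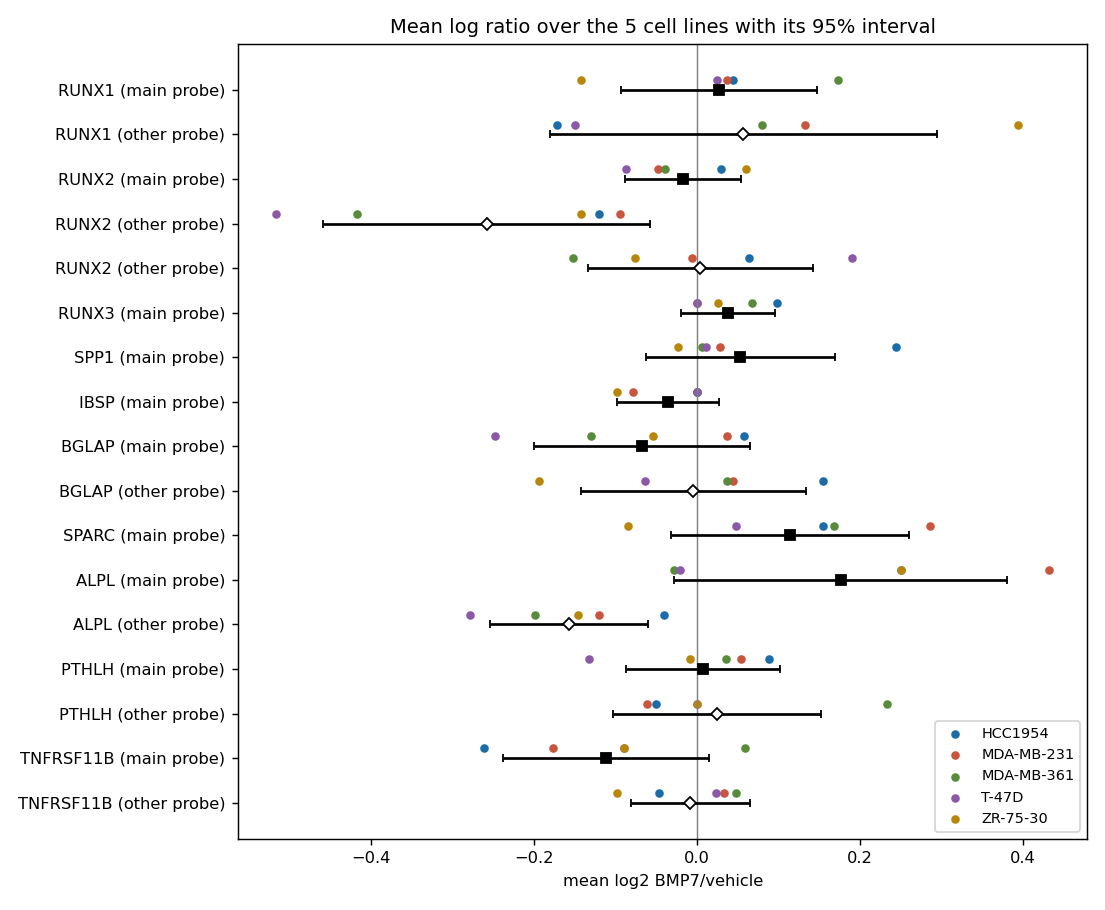
Mean log2 ratio of BMP7 to vehicle over the 5 cell lines (horizontal axis) with its 95% interval, for the main probe of each gene (squares) and its other probes (open diamonds), and the line means as coloured dots. Every interval of a main probe includes 0, from TNFRSF11B at -0.11 to ALPL at 0.18.

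For RUNX2 the mean log2 ratio was -0.02 (95% interval -0.09 to 0.05), with line means from -0.09 in T-47D to 0.06 in ZR-75-30. RUNX1 averaged 0.03 (-0.09 to 0.15) and RUNX3 0.04 (-0.02 to 0.10). The other probes reached further, with -0.26 (-0.46 to -0.06, adjusted p = 0.234) for RUNX2 A_24_P69267 and 0.06 (-0.18 to 0.29) for RUNX1 A_24_P917783. Of the matrix genes, BGLAP averaged -0.07 (-0.20 to 0.07), SPP1 0.05 (-0.06 to 0.17), IBSP -0.04 (-0.10 to 0.03) and SPARC 0.11 (-0.03 to 0.26). RUNX3, IBSP, SPP1 and SPARC were mostly not above background, so their ratios near 0 set little limit on a change. RUNX3 was well above background throughout HCC1954 and MDA-MB-361. There its mean ratio was 0.10 (limma adjusted p = 0.129) and 0.07 (adjusted p = 0.334), above 0 on 5 of 6 arrays in each. PTHLH averaged 0.01 (-0.09 to 0.10), TNFRSF11B -0.11 (-0.24 to 0.02, adjusted p = 0.376) and ALPL 0.18 (-0.03 to 0.38, adjusted p = 0.384).

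**Figure D3:**
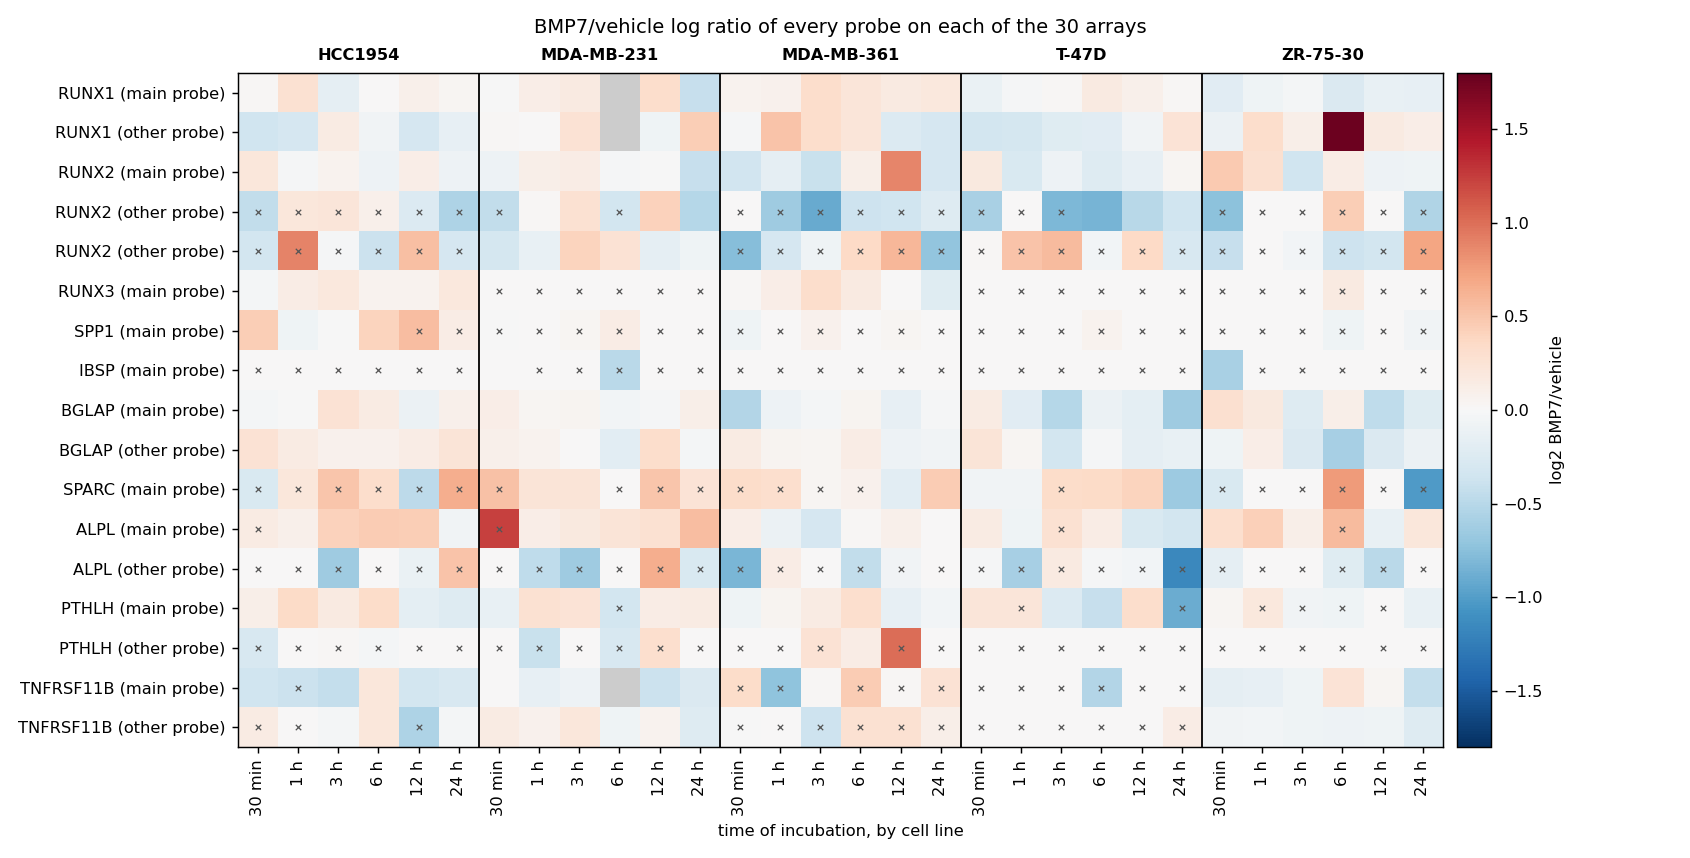
Log2 ratio of BMP7 to vehicle for all 17 probes, main and other (rows), on each of the 30 arrays (columns, by cell line and time), on a colour scale from -1.8 to 1.8. Crosses mark ratios with neither channel well above background and grey cells were left out as outlier-marked spots. The 2 ratios of main probes past 2-fold, ALPL in MDA-MB-231 at 30 min and SPARC in ZR-75-30 at 24 h, both carry a cross. Of the 5 ratios past 2-fold over all probes, only the second RUNX1 probe in ZR-75-30 at 6 h carries none.

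A constant dye effect cancels in the change of the ratio over time. Comparing 3 to 24 h with 30 min in a fit blocked on the cell line, limma called none of the 17 probes (1 at an unadjusted p under 0.05) and 0.195% of all probes. The changes of the main probes ran from -0.24 for ALPL (adjusted p = 0.327) to 0.09 for IBSP, with a median of -0.029. RUNX2 changed by -0.12 (95% interval -0.42 to 0.17), RUNX1 by 0.08 (-0.07 to 0.24), RUNX3 by 0.05 (-0.05 to 0.15), BGLAP by -0.10 (-0.32 to 0.12) and SPP1 by -0.01 (-0.14 to 0.12), none of which passed the test. The same test called 4 of 8 genes known as direct BMP targets or feedback inhibitors, all upward. These were ID2 (1.14, adjusted p = 0.00262), ID3 (0.92, adjusted p = 0.0246) and ID1 (1.05, adjusted p = 0.0475), inhibitors of differentiation factors, and SMAD6 (0.57, adjusted p = 0.0461), an inhibitory SMAD. Without the slide that MDA-MB-231 shared with ZR-75-30 this limma test called none of all probes (3688 at an unadjusted p under 0.05), these 4 genes included, while the median change of the 8 genes was 0.65 with and without it. With scan batch as a term it called 4 of all 41000 probes and none of the 17. Of the 8 genes it then called 1, and their median change was 0.61.

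Within single lines, limma called 3 of the 85 probe and line means, 2 higher and 1 lower, which is 3.53% where 7.45% of all such means were called (3.69% higher and 3.76% lower). ALPL in MDA-MB-231 had log2 ratios of 1.22, 0.12, 0.18, 0.24, 0.28 and 0.55 from 30 min to 24 h. All 6 were above 0 and the 30 min array, whose spots were not well above background, was far the highest. The mean was 0.43 (SE 0.11, 1.35-fold, adjusted p = 0.0149), and an exact sign-flip permutation test over these 6 arrays gave p = 0.0313, the smallest it can give. That test was run only on the 3 means that limma had called, with no adjustment for this choice. It adds no independent support, and it cannot separate a constant dye bias from a BMP7 effect. Without the 30 min array the mean was 0.27 (adjusted p = 0.105), and without the slide shared with ZR-75-30 it was 0.28 (adjusted p = 0.0996). The call was also lost without the 24 h array (0.41, adjusted p = 0.0616) and under normexp and median scaling (0.15, adjusted p = 0.285). It was kept in the other 13 of 17 alternatives, both filters on dim spots among them. On the 4 arrays of the first scan batch it averaged 0.28 and on the 2 of the second 0.73.

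ALPL also averaged 0.25 in HCC1954 and 0.25 in ZR-75-30, above 0 on 5 of 6 arrays in each, but neither passed the test (adjusted p = 0.169 in both). It averaged -0.03 in MDA-MB-361 and -0.02 in T-47D, and the difference among the 5 lines missed the threshold (F test adjusted p = 0.109). The second ALPL probe, never well above background in the vehicle channel, had a mean over lines of -0.16 (adjusted p = 0.174), opposite in sign.

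SPP1 in HCC1954, the line in which it could be measured, had log2 ratios of 0.45, -0.07, -0.01, 0.41, 0.55 and 0.14 from 30 min to 24 h. The ratios were above 0 on 4 of 6 arrays with no order in time. At least 1 channel was well above background on 4 of the 6 arrays, and not on the 12 h array, which had the highest ratio. The mean was 0.24 (SE 0.050, 1.18-fold, adjusted p = 0.00347). That SE draws on all 5 lines, and in the other 4 every SPP1 ratio lay within 0.14 of 0, while the SD over the HCC1954 arrays was 0.26 and the exact sign-flip permutation test over these 6 arrays gave p = 0.125. SPP1 is printed 10 times on the array, and over those spots the SD of the ratio on a HCC1954 array ran from 0.05 to 0.38. With normexp background correction and loess the SPP1 mean in HCC1954 was 0.04 (adjusted p = 0.348), with normexp and median scaling 0.06 (adjusted p = 0.818) and with the authors' matrix 0.22 (adjusted p = 0.0802).

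The 1 fall called was in a dim RUNX2 probe, A_24_P69267 (chr6:45622775-45622834, hg18), in T-47D, with log2 ratios of -0.59, 0.00, -0.81, -0.84, -0.50 and -0.36 from 30 min to 24 h. It fell by 0.52 on the log2 scale (SE 0.14, adjusted p = 0.0284, exact sign-flip permutation p = 0.0625 over 6 arrays) and was well above background on 3 of these 6 vehicle arrays. Its vehicle level ran from -7.12 to -0.42 on these arrays, where that of the main RUNX2 probe ran from 0.08 to 0.84. The main RUNX2 probe, well above background on all of them, averaged -0.09 in T-47D (adjusted p = 0.775). The call was lost with only spots well above background in at least 1 channel (adjusted p = 0.0612), under normexp and median scaling (adjusted p = 0.0953), and without the 3 h, the 6 h or the 12 h array.

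**Figure D4:**
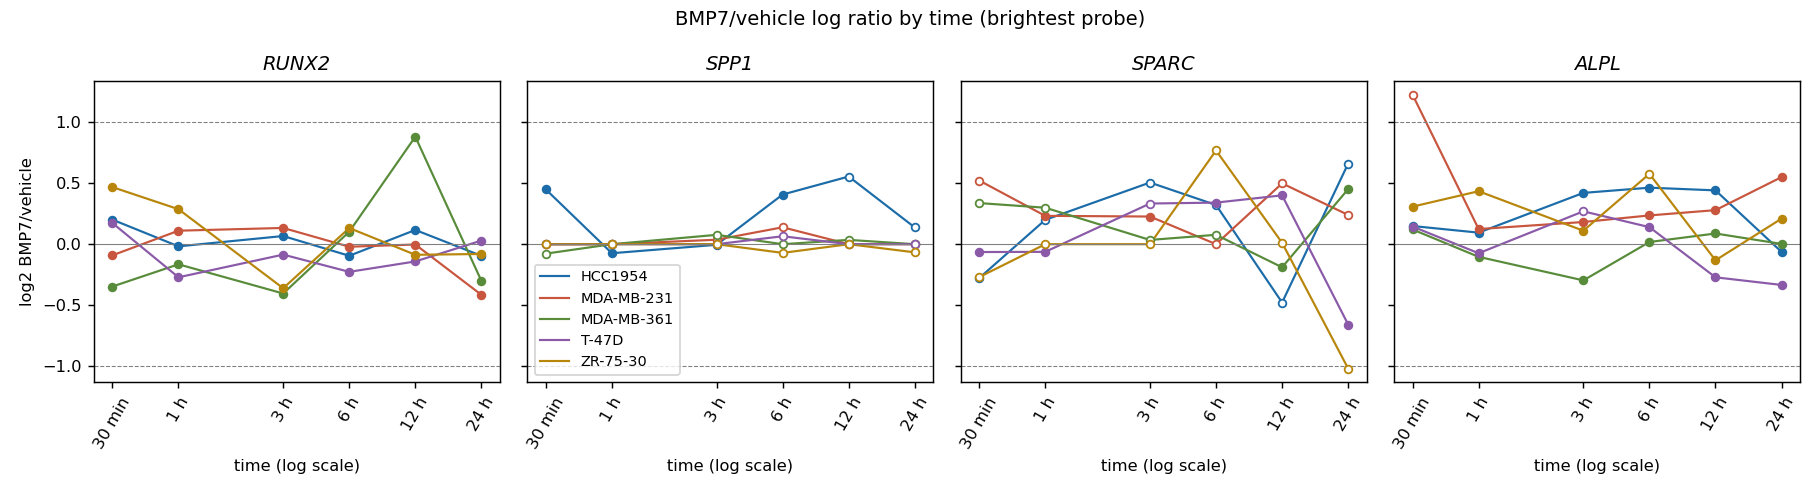
Log2 ratio of BMP7 to vehicle (vertical axis) by time point (horizontal axis) in each of the 5 cell lines, for the main probes of RUNX2, SPP1, SPARC and ALPL. Open points had neither channel well above background and dashed lines mark 2-fold. RUNX2 stayed inside the dashed lines on every array, with its extreme of 0.88 in MDA-MB-361 at 12 h.

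The ratio itself was not called different among the 5 lines for any of the 17 probes (4 at an unadjusted p under 0.05), where 11.0% of all probes were. SPP1 came nearest (adjusted p = 0.0503) and was called with time point as a block (adjusted p = 0.0494). As SPP1 was well above background on no array outside HCC1954, this test cannot show a difference among lines in its response. RUNX1 lay from 0.07 to 0.32 in MDA-MB-361, above 0 on all 6 arrays (mean 0.17, adjusted p = 0.0817), and from -0.26 to -0.03 in ZR-75-30, below 0 on all 6 (mean -0.14, adjusted p = 0.164), and the ranges of these lines did not overlap. The second RUNX1 probe, also well above background on all arrays, went the other way in ZR-75-30 (mean 0.39, above 0 on 5 of 6 arrays) and averaged 0.08 in MDA-MB-361, above 0 on 3 of 6. With MDA-MB-231 left out the F test of the remaining 4 lines called RUNX1 (adjusted p = 0.0147) and SPP1 (adjusted p = 0.0497). TNFRSF11B was below 0 on 5 of 6 HCC1954 arrays (mean -0.26, adjusted p = 0.147) and BGLAP on 5 of 6 T-47D arrays (mean -0.25, adjusted p = 0.0795), neither of which passed the test.

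Changes of at least 2-fold on a single array were rare. The main probes had 2 among 298 ratios (0.671%), against 1.87% over all probes. ALPL in MDA-MB-231 at 30 min was 2.34-fold up and SPARC in ZR-75-30 at 24 h 2.03-fold down, both with neither channel well above background and with scanner p-values of 0.231 and 0.465 for those spots. Of all 17 probes, 5 of 507 ratios were past 2-fold, and 1 of these was well above background, the second RUNX1 probe in ZR-75-30 at 6 h, 3.40-fold up on the array with the most changed probes. The main RUNX1 probe on that array was at -0.26.

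Around these members, 5 lists of genes of the same pathways were read the same way, each from its brightest probe. None of the lists had a gene whose mean over lines was called other than 0 by limma, and the nearest were ID2 (0.91, adjusted p = 0.0993), HDAC4 (0.43, adjusted p = 0.101) and ID1 (0.81, adjusted p = 0.127). Of 40 BMP response means by line 11 rose and none fell, of 75 for partners and regulators of RUNX proteins 11 rose and 4 fell, of 40 for osteoblast transcription factors 2 rose and 1 fell, of 80 for bone matrix and mineralization 1 rose and 2 fell, and of 75 for the RANK axis and bone metastasis genes 4 rose and 2 fell. Over all probes 7.45% of such means were called, and the last 3 of these lists were called at about that share or below it. In the BMP response list the calls fell on ID1, ID2, ID3, ID4, SMAD6 and SMAD9 in HCC1954, MDA-MB-231, MDA-MB-361 and ZR-75-30, and no gene of it was called in T-47D. The median of the list's means was 0.28, against a median of 0 over all probes. Without the shared slide 16 of the 40 rose and none fell.

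In all these lists, rose and fell mean that the mean ratio of a line was called above or below 0, which also holds any dye bias of the probe. From 30 min to 3 to 24 h, where a constant dye effect cancels, none of the 15 RUNX partners and regulators was called. Among them, HDAC4, a histone deacetylase that represses RUNX2, rose in HCC1954 (0.52), MDA-MB-231 (0.57) and MDA-MB-361 (0.55). TLE3, a Groucho corepressor, rose in MDA-MB-231 (0.22), MDA-MB-361 (0.16) and ZR-75-30 (0.24), and its relative TLE4 in MDA-MB-231 (0.41) and MDA-MB-361 (0.35). SMURF1, a ubiquitin ligase for SMADs and RUNX2, rose in T-47D (0.45). TLE1 (-0.21, HCC1954), CBFA2T3 (-0.43, MDA-MB-231) and the coactivators WWTR1 (-0.26, MDA-MB-361) and YAP1 (-0.18, ZR-75-30) fell.

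The 3 calls among osteoblast transcription factors, a share like that of all probes, were in MDA-MB-361, where DLX5 (0.45) and DLX6 (0.18), homeobox factors of bone development, rose and ATF4 (-0.31) fell. Restricted to spots well above background in at least 1 channel, the list had 0 rises and 1 fall among 23 means. Of the matrix and mineralization genes, ANKH, a pyrophosphate transporter, rose in HCC1954 (0.27) and ENPP1, which makes pyrophosphate, fell in MDA-MB-231 (-0.19) and T-47D (-0.18). In the last list CTGF (0.52, MDA-MB-361), TNFRSF11A, the RANK receptor (0.43, T-47D), ITGAV (0.25, HCC1954) and TNFSF10 (0.18, ZR-75-30) rose, and ACP5, an acid phosphatase known from osteoclasts, fell in MDA-MB-361 (-0.46) and T-47D (-0.42). From 30 min to 3 to 24 h none of these 4 lists had a called gene. The largest of their changes were in DLX3 (0.76, adjusted p = 0.0882), MSX1 (0.53) and TNFRSF11A (-0.41). With either filter on dim spots this comparison called 1 of 5 osteoblast transcription factors, upward. With 30 min and 1 h together it called 1 of 8, also upward.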

How the data were processed

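RNA from 5 breast cancer cell lines given BMP7 (Cy5) or vehicle (Cy3) was hybridised by the authors to two-colour arrays, read with Feature Extraction 9.5.1.1, on a probe design built on hg18. This software version is the one in the file headers, and the paper names another. The deposited log10 ratios, per the file headers, were background corrected and linear and lowess dye normalised, with surrogate values for signals not above background. The deposited intensities of each channel were made by the same software, as was the p-value of each ratio that the authors deposited, and its marks for outlier spots and for spots well above background were used as deposited. The authors' matrix of log2 ratios served as an alternative. The deposited files hold no repeat arrays, so precision is limited by how many arrays there are and by signal over background.

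Ratios were changed to log2, outlier-marked spots left out, spots of a probe averaged and array medians set to 0. Vehicle levels are log2 signals minus the 75th percentile of the array. limma 3.58.1 in R 4.3.3 was fitted to all probes with Benjamini-Hochberg adjustment (threshold 0.05), over all line coefficients or pairs together, for vehicle levels among lines, mean ratios over 5 line means, ratios at 3 to 24 h minus 30 min with line as a block (1 h as its own level), line means, and ratios among lines. The scripts were tested on simulated data. Each gene was read from its brightest probe, and all members are described. Of each list, the genes past a test are named, or otherwise the largest changes. Members and lists were chosen with earlier results of these data known. Alternatives were other background corrections and scalings, the matrix, filters on dim spots, other probes, slide or scan batch terms, and leaving out each line or time point. Leaving out the shared slide, time point as a block, and the sign-flip test within a line were added after the data had been seen. Tables used Python 3.11.15, numpy 2.4.6, pandas 2.3.3 and matplotlib 3.10.9.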

Additional observations from a re-analysis of the deposited data

Results flagged for a closer look

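Of 74 groups of 6 arrays that could be tested with Dixon's criterion, 3 held an array apart from the rest, where chance gives about 1 in 20. The IBSP vehicle level in ZR-75-30 at 30 min was -5.65, against -7.86 to -7.05 on the other 5 arrays, and that array was on the slide shared with MDA-MB-231. The BGLAP log2 ratio in MDA-MB-361 at 30 min was -0.52, against -0.15 to 0.04 at the later times. The TNFRSF11B log2 ratio in HCC1954 at 6 h was 0.21, against -0.43 to -0.28 at the other times.

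The RUNX1 log2 ratio of the main probe differed in sign between lines. It was above 0 on every MDA-MB-361 array (mean 0.17) and below 0 on every ZR-75-30 array (mean -0.14), a difference of 0.32. The second RUNX1 probe did not show this, with means of 0.08 in MDA-MB-361 and 0.39 in ZR-75-30. The difference of this pair was not tested by itself, and the limma F test over all 5 lines gave an adjusted p of 0.106.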

How the results depend on the processing

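Of 138 recomputed counts, 117 stayed within 1.5 times the count reported, and of 691 recomputed values of single genes 669 kept their side of the threshold. The counts of 0 members for the mean over lines and for the change from 30 min were 0 under each of their 20 and 23 alternatives. Among all probes these tests called 4 and 80 as reported and up to 3146 (normexp and median scaling) and 1002 (30 min and 1 h together) otherwise, and down to 0 in both. Members with a vehicle level called different numbered 7 and pairs 38 under normexp. The 3 line means called became 5 under normexp and loess, 1 under normexp and median scaling, and 1 with spots well above background in both or in at least 1 channel. The F test of ratios among lines called 2 members without MDA-MB-231, 1 without 1 h, 1 with scan batch as a term and 1 with time point as the replicate block. The 2 changes past 2-fold became 0 under normexp and loess, under a 3-fold limit, with a spot p under 0.01 and with either filter on dim spots, 5 under normexp and median scaling, and 1 without MDA-MB-231, ZR-75-30, 30 min, 24 h or the shared slide. IBSP vehicle levels were called different among lines without MDA-MB-231 (adjusted p = 0.0359) and without the shared slide (adjusted p = 0.00581). IBSP was well above background on 2 arrays, both on that slide. The second call therefore compared only signals not well above background, and the first mostly such signals, so neither shows a line difference in IBSP. The causes were not tested. In the lists, the 4 BMP response rises from 30 min ranged from 0 to 5 over 23 alternatives, with none in 7 of them, and the 11 line means that rose from 4 to 16 over 17. Probes near background limit what IBSP, SPP1 and SPARC ratios can show, and RUNX3 ratios outside HCC1954 and MDA-MB-361. Arrays of the lines share time points, and with time point as the replicate block 12 probes and 76 pairs of vehicle levels and 3 line means were called, as without it. In the comparison over time, the line was already the block.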
